A study of Mus musculus with 7 samples.

Results

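The genes described here are 48 markers of the dividing cell, followed across the cell types of the mouse nose at embryonic day 14.5. They were listed by name as known cell cycle genes, out of the 30339 genes that all count tables list with a unique symbol. The list holds 17 S-phase genes, whose products prepare, carry out or accompany DNA copying. It also holds 31 mitotic genes, whose products act from late G2 to cell separation. Other genes of the cell cycle formed a further list of 86.

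Whole noses were profiled by droplet sequencing of 3′ transcript ends (10x Chromium), in which each captured transcript counts as a unique molecular identifier (UMI). The wild-type group (WT) holds CD1 IGS embryos, replicates 1 to 5, with no treatment or transgene named in the labels. The ProKR2iCre/R26tdTomato group holds 2 libraries made from a single nose, so they are not replicates, and the labels do not say which was sorted by flow cytometry. They are called Prokr2Cre libraries 1 and 2. On a B6;SJL background they carry the allele Prokr2em1(cre)Cfe, in which Prokr2 drives Cre recombinase. The allele Gt(ROSA)26Sortm14(CAG-tdTomato)Hze makes a red reporter in cells that have used Cre. All suspensions were frozen and thawed before loading. WT replicates 3 and 4 shared 7386 barcodes, of 7396 and 7408, and other pairs of libraries at most 34, so replicate 3 was left out and 4 WT libraries carry the comparisons.

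A cell commits to division when cyclin D kinases phosphorylate Rb proteins and release E2F factors, which switch on the genes of DNA replication. Later in the cycle, B-Myb and FoxM1 bind with the MuvB complex at CHR elements, near CCAAT boxes bound by NF-Y, and switch on the mitotic genes. Cdkn1a (p21), Cdkn1b (p27) and Cdkn1c (p57) inhibit cyclin-dependent kinases. In the olfactory epithelium, basal progenitors divide and give rise to neurons that no longer divide.

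The promoters of the mitotic and of the S-phase genes differed in these elements. RefSeq held a promoter window of 300 bases on the GRCm38.p6 build for 40 of the 48 genes, 13 S-phase and 27 mitotic. A CHR (TTTGAA or TTTAAA, either strand) stood in 24 of 27 mitotic windows (88.9%) and 4 of 13 S-phase windows (30.8%), against 27.9% of all 27025 windows. A CCAAT box (CCAAT, either strand) stood in 24 of 27 mitotic windows (88.9%), 9 of 13 S-phase windows (69.2%) and 37.8% of all windows. An E2F-like element (GCGGGAA or GCGCCAA, either strand) stood in 4 of 27 mitotic (14.8%), 8 of 13 S-phase (61.5%) and 6.93% of all windows. CHR and CCAAT box occurred in the same window in 22 of 27 mitotic genes (81.5%), 3 of 13 S-phase genes (23.1%) and 10.8% of all genes. A match describes the letters only and is no measured binding site.

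The stretch that ends at the start site is shown for 3 mitotic genes, with CHR and CCAAT matches on either strand in capitals, and for 3 S-phase genes, with E2F-like matches in capitals. The capitals mark these elements only: the S-phase stretches also hold CCAAT boxes in lower case, and that of Ccnb1 an E2F-like match that overlaps its first CCAAT box. Cdk1 encodes the kinase that drives mitosis, Ccnb1 its partner cyclin B1 and Top2a the topoisomerase that untangles sister DNA. Mcm6 encodes a subunit of the replicative helicase, Rrm1 the large subunit of ribonucleotide reductase, and Uhrf1 a factor that guides DNA methylation onto new strands. All are written 5′ to 3′ on the strand of the gene.
Cdk1, chr10:69352913-69353062, minus strand: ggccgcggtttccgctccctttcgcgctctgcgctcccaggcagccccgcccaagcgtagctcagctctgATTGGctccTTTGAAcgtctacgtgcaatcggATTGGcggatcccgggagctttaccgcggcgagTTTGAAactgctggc
Ccnb1, chr13:100786487-100786636, minus strand: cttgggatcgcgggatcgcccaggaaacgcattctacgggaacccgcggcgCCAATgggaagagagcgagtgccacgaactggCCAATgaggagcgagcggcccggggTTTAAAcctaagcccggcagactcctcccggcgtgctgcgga
Top2a, chr11:99024190-99024339, minus strand: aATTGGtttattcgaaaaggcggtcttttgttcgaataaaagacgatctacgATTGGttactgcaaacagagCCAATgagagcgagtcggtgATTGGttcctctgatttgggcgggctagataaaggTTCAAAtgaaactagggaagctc
Mcm6, chr1:128359706-128359855, minus strand: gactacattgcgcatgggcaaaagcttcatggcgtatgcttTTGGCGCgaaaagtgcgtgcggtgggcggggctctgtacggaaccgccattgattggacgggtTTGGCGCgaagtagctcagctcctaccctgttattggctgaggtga
Rrm1, chr7:102441545-102441694, plus strand: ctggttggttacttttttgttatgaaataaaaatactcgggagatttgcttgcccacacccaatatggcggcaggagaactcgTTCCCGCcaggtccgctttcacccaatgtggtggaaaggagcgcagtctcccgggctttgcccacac
Uhrf1, chr17:56303187-56303336, plus strand: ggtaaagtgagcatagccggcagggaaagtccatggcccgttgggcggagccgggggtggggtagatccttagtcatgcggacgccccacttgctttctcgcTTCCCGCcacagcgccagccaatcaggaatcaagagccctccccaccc

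Cells in which 500 or more genes were found and mitochondrial UMIs did not exceed 10% were assigned to 17 classes by 147 markers that include none of the 48 genes. Of 31465 such cells in the 6 libraries used, 26402 (83.9%) received a class, and classes carry the ending "-like" because they rest on markers alone. The 10 mesenchyme markers summed higher in another class than in mesenchyme-like cells in WT replicate 1 (9181 against 5938 CPM) and WT replicate 2 (6556 against 5465 CPM), so that there they do not set apart the class most comparisons refer to. Mesenchyme-like cells made up 16108 of them, simple epithelium-like 1799, olfactory neuron-like 505 and olfactory progenitor-like 127. Total depth ran from 44599430 UMIs in WT replicate 5 to 89800259 in WT replicate 1 among the 4 WT libraries used, and 16773781 in Prokr2Cre library 2. Values are CPM, the gene's UMIs scaled to 1000000 UMIs of the class in a library, and 12 classes had at least 10 cells in 3 or more WT libraries. The count tables of WT replicates 1 and 4 list 31053 genes and those of replicates 2 and 5 list 32285. The level of 1 member differed between these pairs of libraries in every class. Pcna, the sliding clamp of DNA polymerase, was at 21.5 and 20.8 CPM in mesenchyme-like cells of WT replicates 1 and 4 and at 114.2 and 96.8 CPM in replicates 2 and 5. The copy Pcna-ps2 is listed in the shorter tables alone, with 822 UMIs over all barcodes of WT replicate 1 and 341 in replicate 4. Its part in the Pcna difference was not tested. Rrm2 was higher in both longer-list libraries in 10 of 12 classes, and Mcm5 and Cdt1 in 9 of 12. Other members were lower in both of them: Prc1 in 8 of 12 classes (median log2 ratio -0.66), and Nusap1, Sgo1 and Ccne2 in 7 of 12 (-0.64, -0.59 and -0.37).

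The mitotic genes were highest in olfactory progenitor-like cells. Their summed level there was 5837, 4632, 4831 and 5584 CPM in WT replicates 1, 2, 4 and 5, a mean of 5221 ± 580 CPM (SD, n = 4). It was the highest mean of the 12 classes. Mural-like cells, next in order, had 3354 ± 971 CPM, with WT replicate 4 at 4745 CPM within the progenitor range. They were followed by dermal condensate-like (3117 ± 1187, with WT replicate 4 at 4671 CPM, also within that range), simple epithelium-like (3040 ± 582), glia-like (2896 ± 489) and macrophage-like cells (2805 ± 1074), whose SDs overlap. Endothelial-like (2229 ± 865), osteoblast-like (2120 ± 747), stratified epithelium-like (2022 ± 205), mesenchyme-like (1916 ± 439) and cartilage-like cells (1884 ± 542) formed a lower group whose neighbours do not differ beyond their SDs. Olfactory neuron-like cells were last with 1254 ± 705 CPM.

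The S-phase genes gave another order, with a narrower spread. Dermal condensate-like cells led the 12 classes with 1105 ± 109 CPM, below the 1246 and 1558 CPM of muscle precursor-like cells in WT replicates 1 and 2. The condensate class was followed by glia-like (1019 ± 196), progenitor-like (991 ± 216), macrophage-like (986 ± 89.0), mural-like (978 ± 159) and simple epithelium-like cells (899 ± 121). None of these neighbours differs from the next beyond its SD. Mesenchyme-like cells had 704 ± 62.9 CPM and neuron-like cells again came last, with 398 ± 250 CPM. Gene by gene, 29 of the 31 mitotic members had their highest mean in progenitor-like cells, the exceptions being Ccnb2 (macrophage-like) and Cenpe (mural-like). Only 4 of 17 S-phase members did, while 7 were highest in macrophage-like cells.

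**Figure D1:**
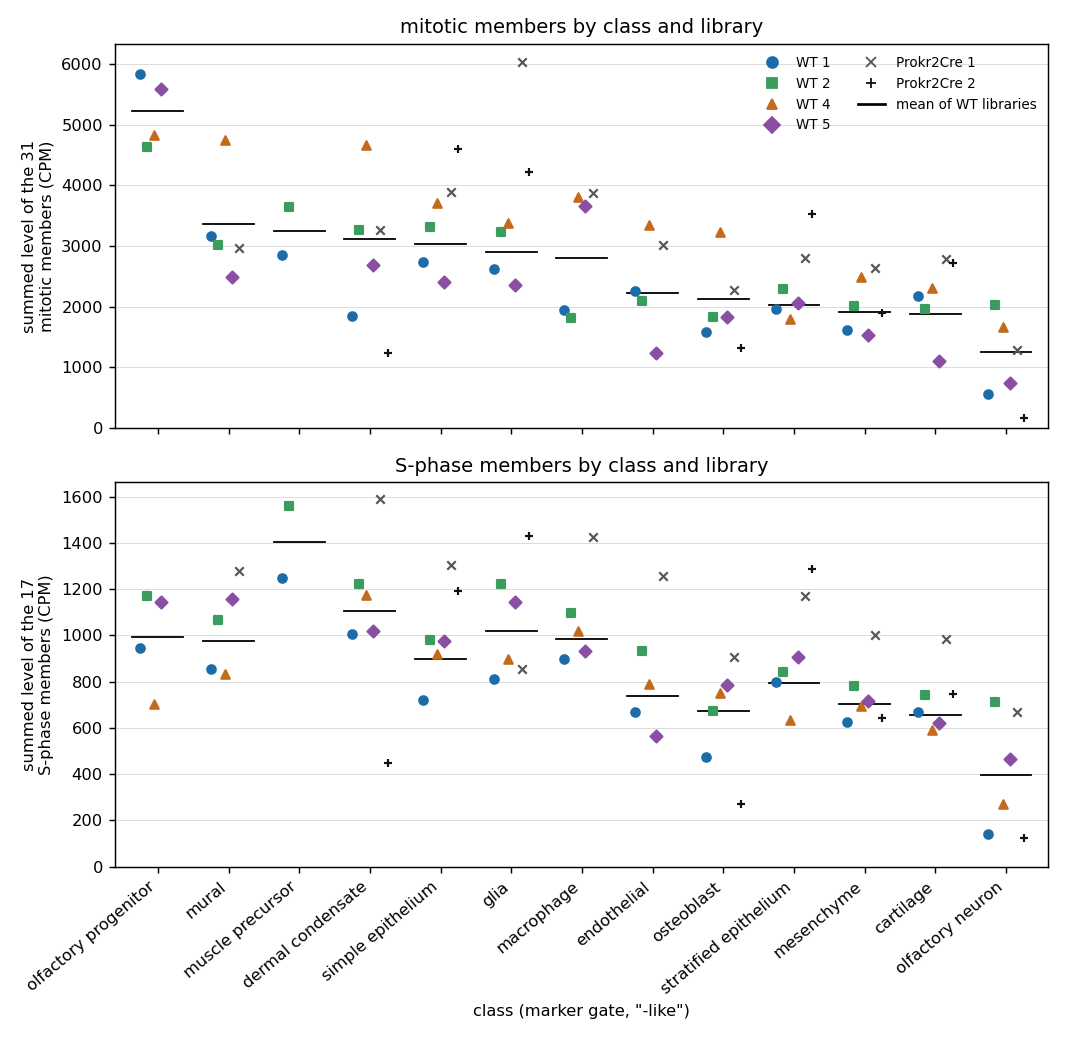
Summed level of the 31 mitotic genes and the 17 S-phase genes (CPM) by class, with 1 point per WT or Prokr2Cre library. The 4 mitotic points of olfactory progenitor-like cells, all WT, lie between 4632 and 5837 CPM. Those of olfactory neuron-like cells lie between 569 and 2024 CPM in the WT libraries. They are at 1290 and 169.6 CPM in Prokr2Cre libraries 1 and 2.

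Olfactory progenitor-like and olfactory neuron-like cells differed in nearly the whole list. Of the 48 genes, 44 were higher in progenitors and 0 lower (edgeR quasi-likelihood test, library as block, adjusted p below 0.05), comprising all 31 mitotic and 13 of 17 S-phase genes. Over all 14200 genes tested, 5.57% were called higher and 11.3% lower (16.8% in all). The median log2 fold change was 2.04 for mitotic genes and 1.42 for S-phase genes, against -0.22 for all genes. The count is 23 without WT replicate 1 and 12 in WT replicates 2 and 5 alone.

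Ccnb1 had the largest change of the list. It stood at 169.6, 211.8, 145.9 and 153.9 CPM in progenitor-like cells of WT replicates 1, 2, 4 and 5, and at 11.4, 30.8, 15.7 and 23.9 CPM in neuron-like cells. Every progenitor value lay above every neuron value, and the fitted log2 change was 3.10 (SE 0.35, adjusted p = 1.3e-08). Fitted fold changes weigh libraries by their depth and can differ from the ratio of the means. Mki67, which coats mitotic chromosomes, was at 210.5, 167.9, 231.5 and 285.8 CPM against 17.9, 53.3, 94.5 and 8.0 CPM. The groups were again apart, with the lowest progenitor value in WT replicate 2 and the highest neuron value in WT replicate 4 (log2 fold change 2.32, SE 0.34, adjusted p = 2.6e-06). Top2a was at 647.2, 315.8, 608.9 and 791.4 CPM against 36.7, 221.5, 180.2 and 42.5 CPM, apart in every library (2.20, SE 0.33). Cdk1 was at 282.7, 223.8, 130.8 and 263.8 CPM against 21.2, 92.3, 50.7 and 79.6 CPM, with no overlap (1.92, SE 0.29). Sgo1, the protector of centromeric cohesion, rose by 2.36 on the log2 scale, cyclin A2 (Ccna2) by 2.30 and the spindle pole kinase Aurka by 2.29.

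Among the S-phase genes, cyclin E2 (Ccne2, 2.01), the helicase subunit Mcm2 (1.96) and the cohesin acetyltransferase Esco2 (1.82) had the largest log2 fold changes. Mcm2 was at 35.1, 28.0, 40.3 and 22 CPM against 4.9, 16.4, 5.2 and 10.6 CPM, so that each library of progenitors exceeded all neuron values. Tyms, thymidylate synthase, rose by 1.41 and Rrm2, the small subunit of ribonucleotide reductase, by 1.67. Pcna rose by 1.23, within each kind of gene list: 50.7 against 6.5 CPM and 40.3 against 10.5 CPM in WT replicates 1 and 4, 163.9 against 121.0 CPM and 285.8 against 82.3 CPM in replicates 2 and 5. Mcm5 did not pass the test (1.28, SE 0.47, adjusted p = 0.053), nor did Gins2, Cdc6 and Cdt1, the last 2 of which load the helicase at origins.

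**Figure D2:**
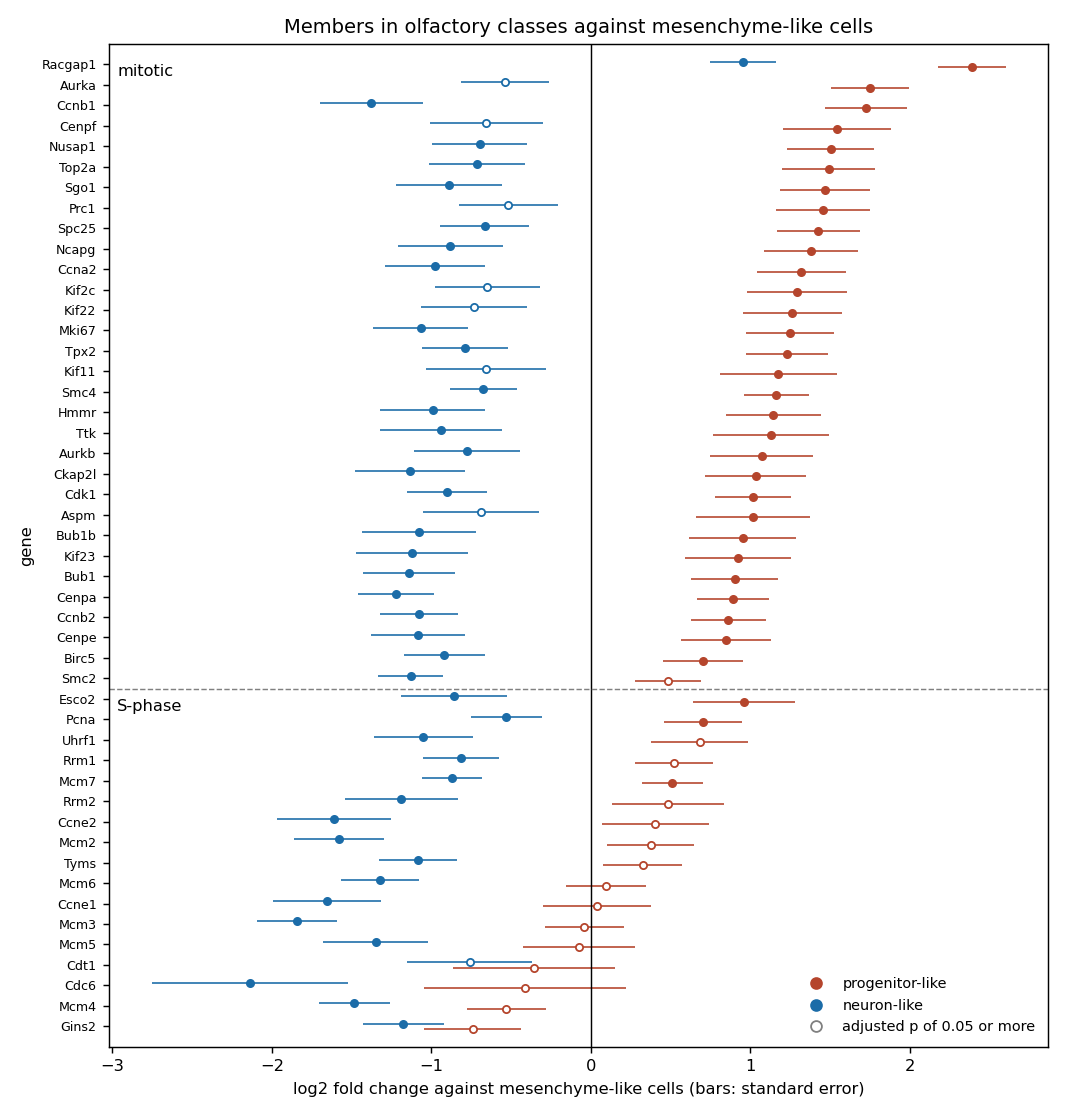
Log2 fold change with its standard error for each of the 48 genes in olfactory progenitor-like and in olfactory neuron-like cells, each against mesenchyme-like cells. Open symbols did not pass the test, and Racgap1 is the only gene of the list called higher in the neuron-like cells.

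Against mesenchyme-like cells the progenitors differed in nearly all mitotic genes and in few S-phase genes. In this comparison, added after the data had been seen, 30 of 31 mitotic genes were higher (all but Smc2) but 3 of 17 S-phase genes, Esco2, Mcm7 and Pcna, and 0 were lower. The shares of all genes were 13.8% higher and 21.6% lower (35.4% in all). The median log2 fold change was 1.18 for mitotic and 0.32 for S-phase genes, against -0.28 for all genes. Summed S-phase genes were at 946, 1171, 704 and 1143 CPM in progenitors against 627, 779, 695 and 715 CPM in mesenchyme-like cells. Within libraries the progenitors were higher in 4 of 4, with log2 ratios of 0.59, 0.59, 0.02 and 0.68, though across libraries the groups overlap. Without Pcna they were higher in 3 of 4, with -0.02 in WT replicate 4. Thinning cells before gating moved the mean ratio from 0.47 to 1.01. Without WT replicate 1, 20 of the 48 were called. Racgap1, a subunit of the centralspindlin complex that directs cytokinesis, led the list at 185.2, 155.9, 256.6 and 153.9 CPM against 25.9, 32.1, 38.1 and 28.2 CPM (2.39, SE 0.21). All progenitor values stood several-fold above all mesenchyme values. Aurka (1.75), Ccnb1 (1.72), the kinetochore protein gene Cenpf (1.54) and the spindle protein gene Nusap1 (1.50) followed. Mcm5 was at 36.1 ± 26.6 against 32.3 ± 5.8 CPM (log2 fold change -0.07, adjusted p = 0.90).

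Neuron-like cells fell below mesenchyme-like cells in most of the list, with Racgap1 as the exception, in another added comparison. Of the 48 genes, 39 were lower and 1 higher, against 25.4% and 23.9% of all genes (49.2% in all). S-phase genes were lower in 16 of 17 cases (all but Cdt1) with a median log2 fold change of -1.19, and mitotic genes in 23 of 31 with -0.89, while the median of all genes was -0.13. Cdc6 fell by 2.14 on the log2 scale, the helicase subunit Mcm3 by 1.84, cyclin E1 (Ccne1) by 1.65 and Ccnb1 by 1.38. Racgap1 was at 36.7, 80.0, 108.5 and 45.1 CPM in neuron-like cells of WT replicates 1, 2, 4 and 5, against 25.9, 32.1, 38.1 and 28.2 CPM. It was higher within each of the 4 libraries, although replicate 1 neurons lie within the range of mesenchyme values (0.95, SE 0.21, adjusted p = 1.6e-04). Kif23, named after its values were seen, encodes the other subunit of centralspindlin and went the opposite way, with 17.6 ± 17 against 32.3 ± 8.67 CPM (log2 fold change -1.12, adjusted p = 0.0069). The summed S-phase level was higher in neuron-like cells in 0 of 4 libraries (mean log2 ratio -1.07 ± 0.89). The summed mitotic level was higher there in 1 of 4 (-0.78 ± 0.65), WT replicate 2 at 2024 against 2014 CPM. The count of 40 depends on the libraries. It was 15 without WT replicate 1, and in WT replicates 2 and 5 alone Racgap1 was the only gene called.

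Markers of other classes were also counted in the neuron-like cells, at levels that differed between libraries. The 8 progenitor markers summed to 814, 837, 947 and 356 CPM in neuron-like cells of WT replicates 1, 2, 4 and 5, against 3082, 3074, 2586 and 3297 CPM in progenitor-like cells. Mitotic genes in neuron-like cells summed to 569, 2024, 1671 and 751 CPM in the same order. WT replicates 2 and 4 were higher than 1 and 5 in both sums. The 10 mesenchyme markers summed to 512, 907, 493 and 1759 CPM in the same neuron-like cells, highest in replicates 2 and 5. In progenitor-like cells the 10 neuron markers summed to 3511, 5684, 7256 and 3957 CPM, against 10030, 8040, 9339 and 5360 CPM in neuron-like cells. The part of these transcripts in the results was not tested. In WT replicate 4 the neuron-like cells had no UMI of Omp or Stoml3, markers of mature olfactory neurons. In Prokr2Cre library 2, with 149 neuron-like cells at a median of 18976 UMIs, mitotic genes summed to 169.6 CPM and S-phase genes to 124.2 CPM, both below every WT library. In Prokr2Cre library 1, with 17 neuron-like cells, they summed to 1290 and 669 CPM, within the WT range. Of the 149 neuron-like cells in library 2, 48 also carried at least 3 terminal nerve markers. The counts were 13 of 130, 3 of 80, 5 of 88 and 2 of 41 in WT replicates 1, 2, 4 and 5. In Prokr2Cre library 1 they were 2 of 17.

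**Figure D3:**
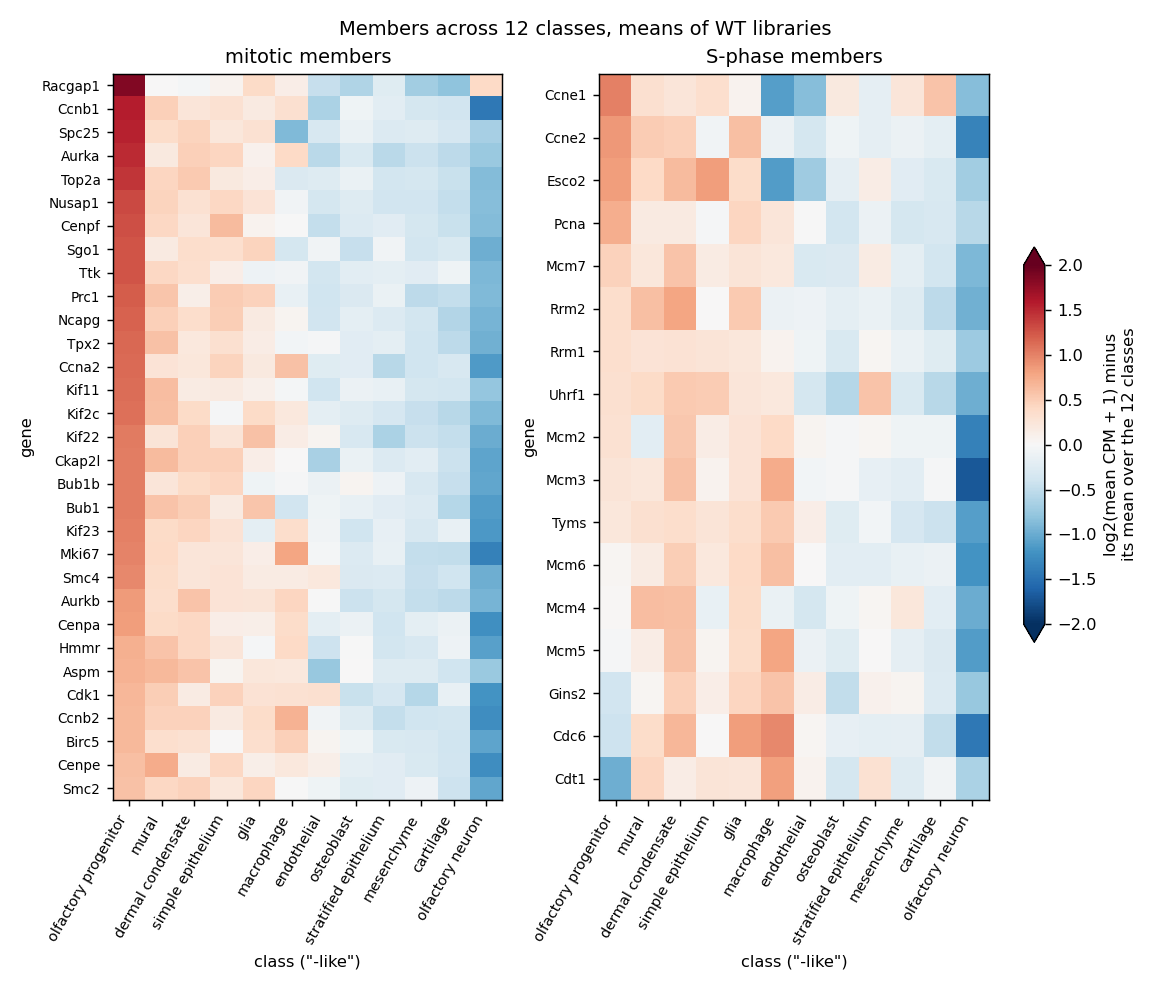
Each of the 48 genes (rows) across 12 classes (columns), as log2(mean CPM + 1) minus the gene's mean over the classes, with the colour scale capped at 2 in either direction. The progenitor column is high for nearly all mitotic genes and mixed for S-phase genes, and the neuron column is the lowest for 28 of 31 mitotic and 14 of 17 S-phase genes.

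Macrophage-like cells exceeded mesenchyme-like cells in many S-phase and mitotic genes. Of 48 genes, 30 were higher and 1 lower, against 24.4% and 27.7% of all genes (52.1% in all). Higher were 12 of 17 S-phase genes, with a median log2 fold change of 0.80, and 18 of 31 mitotic genes, with 0.74, while all genes had a median of -0.20. Among S-phase genes Cdc6, Cdt1 and Mcm5 had the largest changes. Cdc6 was at 21.0, 16.1, 24.0 and 15.3 CPM against 6.6, 7.4, 10.8 and 7.8 CPM, apart in all 4 libraries (1.56, SE 0.34, adjusted p = 1.3e-04). Cdt1 rose by 1.39 and Mcm5 by 1.31. Cyclin E1 went the other way, at 12.1, 8.0, 9.2 and 6.6 CPM against 23.2, 27.9, 23.1 and 22.5 CPM, with no overlap (-1.00, SE 0.31, adjusted p = 0.0062). Among mitotic genes Mki67 (1.48), cyclin B2 (Ccnb2, 1.35), the Aurora B kinase gene Aurkb (1.24) and Ccna2 (1.21) rose most. Top2a did not pass, at 179 ± 82.3 against 172 ± 62.8 CPM (0.33, adjusted p = 0.33). The summed S-phase level was higher in 4 of 4 libraries (mean log2 ratio 0.49 ± 0.07), and the summed mitotic level in 3 of 4 (0.49 ± 0.59), WT replicate 2 being lower at 1814 against 2014 CPM. The count is 19 without WT replicate 5 and 11 in WT replicates 1 and 4 alone.

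Simple epithelium-like cells were higher than mesenchyme-like cells in most mitotic genes. The share of S-phase genes called higher was near that of all genes. In this added comparison 26 genes were higher and 1 lower, against 24.1% and 26.5% of all genes (50.6% in all), made up of 22 of 31 mitotic genes (median log2 fold change 0.66) and 4 of 17 S-phase genes (0.21). The microtubule bundler Prc1 (1.01), Cdk1 (0.99), Cenpf (0.99), the condensin subunit Ncapg (0.87) and Aurka (0.85) led the mitotic genes. Cdk1 was at 214.6, 236.9, 144.3 and 182.5 CPM against 88.8, 118.8, 81.4 and 89.9 CPM, and the groups did not overlap. Among S-phase genes Esco2 (1.06), Uhrf1 (0.78) and Tyms (0.55) rose, while Mcm4 fell by 0.45. The summed S-phase level was higher in 4 of 4 libraries (mean log2 ratio 0.35 ± 0.11), as was the summed mitotic level (0.67 ± 0.08), and the 2 groups were not tested against each other. The count of 27 was 16 without WT replicate 2, 8 in WT replicates 1 and 4 alone and 7 without the library block.

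Stratified epithelium-like cells, compared with simple epithelium-like cells, were lower in 5 mitotic genes and in 0 S-phase genes, and higher in 0. All genes were called lower in 11.3% and higher in 11.4% of cases (22.7% in all), and the members' share lower is near that of all genes. The 5 were Ccna2 (-0.85), Aurka (-0.83), the chromokinesin Kif22 (-0.74), Ncapg (-0.69) and Cdk1 (-0.69). Ccna2 was at 31.9, 44.3, 20.4 and 38.3 CPM against 56.4, 91.2, 71.7 and 56.3 CPM, apart in every library. All 31 mitotic genes had a negative log2 fold change, with a median of -0.39, and the median of the S-phase genes was 0.03. The count was 10, 1, 2 and 8 without WT replicates 1, 2, 4 and 5 in turn, and 0 without the library block.

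Dermal condensate-like cells, named for markers of the clusters under hair follicles, had 12 genes higher and 0 lower than mesenchyme-like cells, against 1.85% and 3.69% of all genes (5.54% in all). The 4 S-phase genes were Rrm2 (0.95), Uhrf1 (0.80), Mcm7 (0.71) and Mcm3, and the mitotic genes were led by Aurkb (1.00), the kinesin Kif2c (0.91) and Aurka (0.90). Mcm7 was at 90.0, 106.5, 103.3 and 89.5 CPM against 59.6, 60.8, 50.8 and 55.7 CPM, with every condensate value above every mesenchyme value. Mki67 did not pass (0.62, adjusted p = 0.14), with 54.0 CPM in WT replicate 1 and 255.2 CPM in WT replicate 4. Thinning cells before gating gave 0 calls and turned Kif2c to -1.41, and 0 were called without the library block. The call rests on single libraries: the count is 0 without WT replicate 2 or without WT replicate 4, 3 without replicate 5 and 30 without replicate 1, the library whose condensate-like cells had no UMI of the marker Sox18. In Prokr2Cre library 2 the mitotic sum was 1230 CPM in condensate-like cells and 1899 CPM in mesenchyme-like cells, the reverse of the WT order. In Prokr2Cre library 1 it was 3269 CPM in 68 condensate-like cells and 2640 CPM in mesenchyme-like cells, which is the WT order.

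Glia-like and mural-like cells, in 2 more added comparisons with mesenchyme-like cells, were higher in 23 and 20 of the 48 genes and lower in 0. All genes were called higher in 12.5% and 6.57% of cases and lower in 17.1% and 7.23% (29.7% and 13.8% in all). In glia-like cells, 8 S-phase and 15 mitotic genes were higher, led by Racgap1 (1.14), Prc1 (1.05), Kif22 (1.03) and Cdc6 (0.97). Racgap1 was at 61.3, 77.7, 78.1 and 50.8 CPM there, above all mesenchyme values. In mural-like cells, the pericytes and smooth muscle of vessels, 18 mitotic and 2 S-phase genes (Rrm2 and Tyms) were higher, led by Kif2c (1.08), Prc1 (1.07), Cdk1 (1.01) and the kinetochore motor Cenpe (1.00). The glial count was 4 without WT replicate 2, 10 without replicate 5 and 14 without replicate 4. It was 4 without the library block, 1 with cells thinned before gating and 1 in WT replicates 1 and 4 alone. The mural count was 15, 4, 7 and 9 without WT replicates 1, 2, 4 and 5 in turn, 1 without the library block, 2 with cells thinned before gating and 1 in WT replicates 1 and 4 alone. Thinning before gating turned Rrm2 in mural-like cells from 0.76 to -0.92, and the mean log2 ratio of the mural S-phase sum from 0.46 to -0.04.

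Endothelial-like cells were lower than mural-like cells in 6 of 48 genes and higher in 0, while 13.4% and 15.2% of all genes were called (28.6% in all), and the members' share lower is near that of all genes. The spindle gene Aspm (-1.11), Ccne1 (-1.00), the spindle gene Ckap2l (-0.92), Ccnb1 (-0.87), Kif2c (-0.86) and Mcm4 (-0.69) were the 6. Ccne1 was at 10.9, 10.2, 14.6 and 7.5 CPM against 24.7, 27.9, 31.3 and 18.9 CPM, and the groups were apart. Mki67 (-0.13) and Cdk1 (0.08) did not pass. Only 1 gene was called without WT replicate 2 and 0 without the library block. Thinning cells before gating gave 0 calls and turned Aspm (0.47) and Kif2c (0.11).

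Cartilage-like and osteoblast-like cells gave few calls against mesenchyme-like cells in this list, while 11% of all genes were higher and 12.4% lower in cartilage-like cells (23.4% in all), and 10.6% and 12.2% in osteoblast-like cells (22.8% in all). Cdk1 was the only gene called in cartilage (0.55, SE 0.19, adjusted p = 0.033), at 162.1, 155.7, 99.3 and 94.0 CPM against 88.8, 118.8, 81.4 and 89.9 CPM, with overlapping groups. It was not called when any library was left out or without the library block. In osteoblast-like cells 0 genes were called by edgeR, 2 had an unadjusted p below 0.05 and DESeq2 called 1 lower, while 30 of 31 mitotic genes had a positive log2 fold change. A fit of these 2 classes alone called 14 higher, and thinning cells before gating gave 4 lower. For muscle precursor-like against myocyte-like cells, the myocyte arm was WT replicate 1 alone with 42 cells, and its spread is assumed to be that of the other classes. There 0 genes were called by edgeR and 0 by DESeq2, 7 had an unadjusted p below 0.05, and 0.218% of all genes were higher and 0.965% lower (1.18% in all). Of the 48 genes, 44 had a positive log2 fold change, with medians of 0.57 (S-phase) and 0.76 (mitotic). Mki67 was at 113.0 and 137.3 CPM in precursors of WT replicates 1 and 2 and at 47.1 CPM in the myocyte-like cells (1.2, adjusted p = 0.43).

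Shares of cycling cells were counted after each cell was thinned to 2000 UMIs, as cells with at least 2 UMIs of mitotic, or of S-phase, members. Among progenitor-like cells, 58.5%, 71.0% and 65.0% carried mitotic UMIs in WT replicates 1, 2 and 4, on 53, 31 and 20 cells. Replicate 5 had too few cells of that depth. Neuron-like and myocyte-like cells were both planned as postmitotic background. The myocyte-like cells of WT replicate 1 gave 50.0% (21 of 42 cells), so these classes set no common floor. Neuron-like cells gave 9.17%, 28.9%, 20.5% and 17.2% in WT replicates 1, 2, 4 and 5. They gave 31.2% (5 of 16 cells) and 6.12% (9 of 147 cells) in Prokr2Cre libraries 1 and 2. The part of progenitor transcripts in these shares was not tested. In mitotic UMIs progenitor-like cells exceeded neuron-like cells by 45.3 ± 3.71 percentage points (SD, n = 3 libraries), in 3 of 3 libraries. The exact sign-flip p was 0.25, the smallest this design allows (0.35 adjusted over the 7 planned pairs). Mesenchyme-like cells, at 20.6%, 26.2%, 28.4% and 20.6%, overlapped the neuron values. For S-phase members the shares did not overlap, at 24.1% to 29.7% in mesenchyme-like and 4.17% to 23.7% in neuron-like cells, a difference of -14.1 ± 5.90 points in 4 of 4 libraries. The median depths in the WT libraries were 4757 to 11214.5 UMIs in mesenchyme-like and 5517.5 to 9195 in neuron-like cells. Without thinning the WT mitotic shares were 38.2% to 55.6% and 37.5% to 50.0%. The unthinned WT S-phase shares, 53.9% to 75.8% and 26.9% to 51.2%, did not overlap either. In Prokr2Cre libraries 1 and 2 the unthinned shares were 86.1% and 74.3% in mesenchyme-like and 76.5% and 63.1% in neuron-like cells. With these libraries included the ranges overlap. Mesenchyme-like cells with mitotic UMIs were themselves deeper, at a median of 10884 UMIs in WT replicate 1 against 7810 for cells without any.

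In the share with S-phase UMIs, simple epithelium-like cells exceeded mesenchyme-like cells by 12.3 ± 2.79 points in 4 of 4 libraries. In the share with mitotic UMIs they exceeded them by 28.3 ± 0.23 points, with a range of 28.0 to 28.6 points over 4 libraries (exact sign-flip p = 0.12, the smallest possible, two-sided). The excess was 30.6 ± 6.40 points in macrophage-like, 21.6 ± 5.61 in dermal condensate-like, 21.1 ± 3.99 in mural-like and 17.9 ± 3.34 in glia-like cells, each in 4 of 4 libraries. Osteoblast-like cells exceeded mesenchyme-like cells by 6.66 ± 1.52 points in 4 of 4 libraries, and cartilage-like cells by 1.19 ± 4.56 points in 2 of 4. Stratified epithelium-like cells were 15.0 ± 7.21 points below simple epithelium-like cells (range -25.7 to -9.99). The macrophage, condensate, osteoblast and stratified differences had adjusted exact sign-flip p-values of 0.219, and no planned pair can pass 0.05 with 4 libraries. The endothelial-like minus mural-like difference was 7.11, 1.55, 8.19 and -18.7 points in WT replicates 1, 2, 4 and 5, so that replicate 5 alone was negative. WT replicate 5 had 20% of endothelial-like cells with mitotic UMIs and the other libraries 51.4% to 53.8%. For S-phase members, condensate-like cells led the 12 classes with 44.0% ± 5.46, and neuron-like cells were lowest with 12.6% ± 8.15 (n = 4). Muscle precursor-like cells were higher still, with 73.1% and 66.7% in WT replicates 1 and 2, while the myocyte-like cells of replicate 1 had 33.3% with S-phase and 50.0% with mitotic UMIs.

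**Figure D4:**
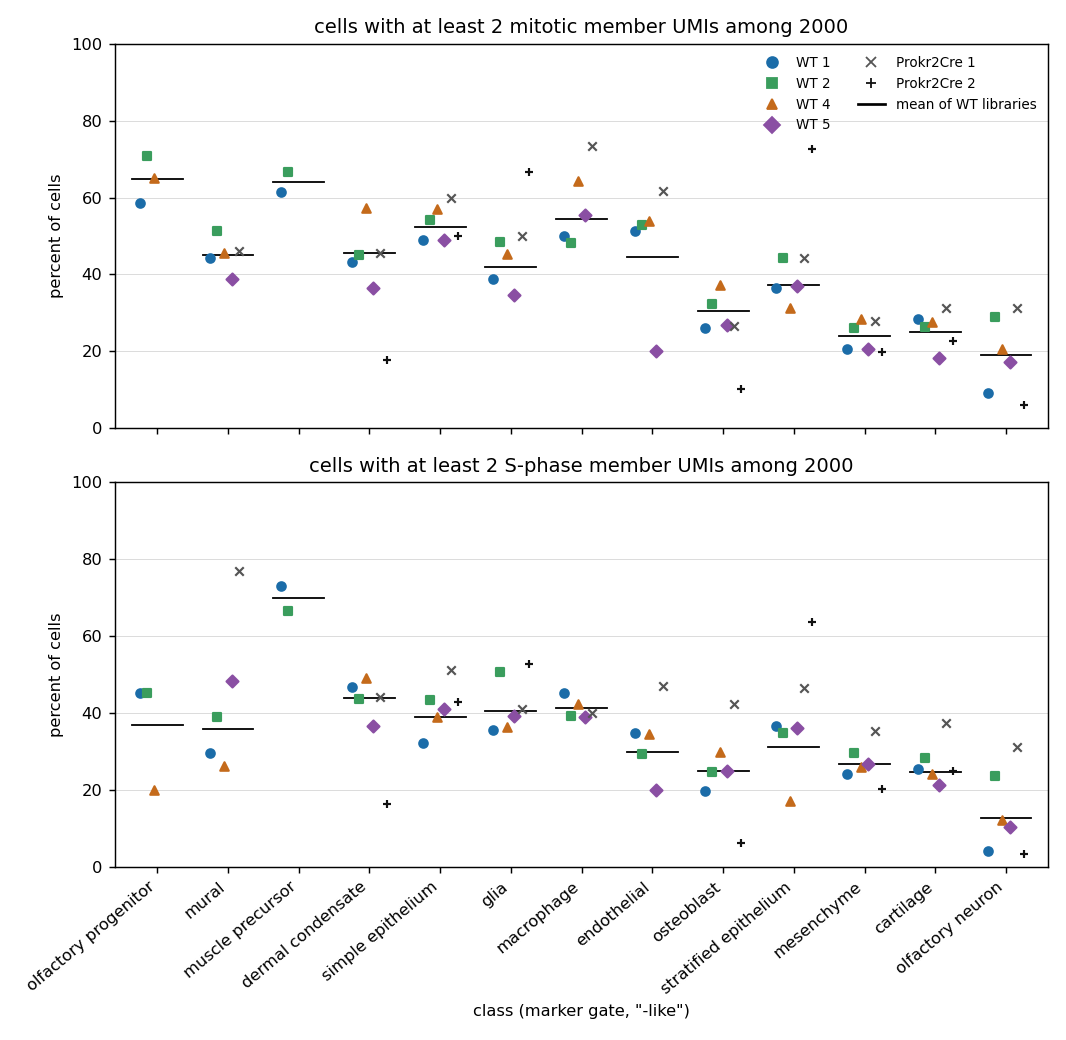
Percent of cells with at least 2 UMIs of mitotic members, and of S-phase members, after thinning to 2000 UMIs. Each class has 1 point per WT or Prokr2Cre library. In the mitotic panel olfactory progenitor-like cells range from 58.5% to 71.0%. Mesenchyme-like cells of the WT libraries range from 20.6% to 28.4%, overlapping the WT neuron-like range of 9.17% to 28.9%. Prokr2Cre libraries 1 and 2 are at 27.8% and 19.9% in mesenchyme-like and at 31.2% and 6.12% in neuron-like cells.

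Among the upstream regulators, cyclin D1 (Ccnd1), a partner of Cdk4 and Cdk6, was at 1261, 636, 523 and 769 CPM in progenitor-like cells of WT replicates 1, 2, 4 and 5. Neuron-like cells had 16.3, 26.7, 19.2 and 87.6 CPM and mesenchyme-like cells 98.4, 107.3, 112.7 and 95.6 CPM. All progenitor values were above all others, and the log2 fold change was 4.57 against neurons (SE 0.34, adjusted p = 3.3e-13) and 2.75 against mesenchyme. Cyclin D2 (Ccnd2) was lower in progenitors than in mesenchyme, with 74.7 ± 83.0 against 341 ± 80.0 CPM (-3.22, SE 0.33), and so was Ccnd3 (-2.71). Neuron-like cells had 94.9 ± 44.8 CPM of Ccnd2, below mesenchyme (-2.02) as for Ccnd1. Between the epithelia the 2 genes also differed in opposite directions: stratified cells had 400 ± 79.4 CPM of Ccnd2 and 75.2 ± 12.5 of Ccnd1, simple epithelial cells 134 ± 31 and 208 ± 75.2, and both differences passed (1.71 and -1.31). Endothelial-like cells had more Ccnd1 (1.15) and less Ccnd2 (-1.42) than mural-like cells.

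**Figure D5:**
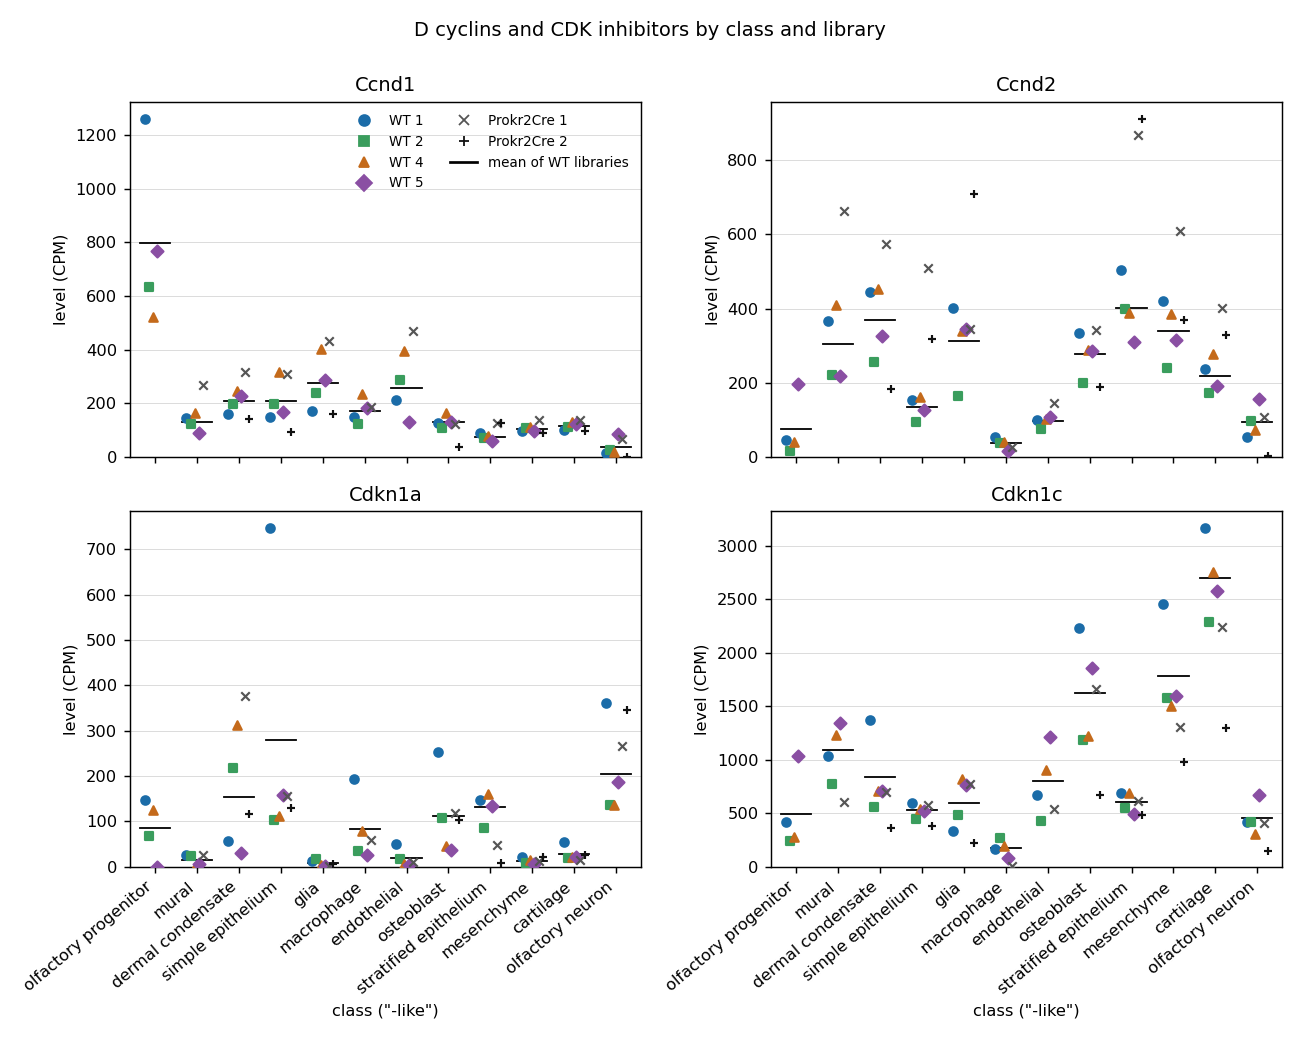
Levels (CPM) of the D cyclins Ccnd1 and Ccnd2 and of the kinase inhibitors Cdkn1a and Cdkn1c by class. Each class has 1 point per WT or Prokr2Cre library. Ccnd1 reaches 523 to 1261 CPM in olfactory progenitor-like cells, and Cdkn1c is at 1504 CPM or more in all WT libraries of mesenchyme-like and cartilage-like cells.

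The kinase inhibitor genes differed among themselves. Cdkn1c was at 2454, 1581, 1504 and 1594 CPM in mesenchyme-like cells, and at 420, 416, 310 and 666 CPM in neuron-like cells. Neurons and progenitors, the pair with the most calls among the 48 genes, did not differ past the test in Cdkn1c (453 ± 151 against 492 ± 369 CPM). Against mesenchyme, Cdkn1c was lower in progenitor-like (-2.41), neuron-like (-2.10), simple epithelium-like (-1.80), glia-like (-1.59), macrophage-like (-3.01), condensate-like (-1.24) and mural-like cells (-0.78). Cdkn1a was at 360.6, 135.4, 136.5 and 185.7 CPM in neuron-like cells against 21.4, 9.0, 15.4 and 6.7 CPM in mesenchyme-like cells, with no overlap (3.84, SE 0.48). It was also higher than in mesenchyme in simple epithelium-like (4.09, with 746.3 CPM in WT replicate 1), condensate-like (3.71), osteoblast-like (3.12), macrophage-like (2.89), progenitor-like (2.54) and cartilage-like cells (1.19). Cdkn1b was higher in progenitors than in neurons (89.5 ± 29.4 against 36 ± 11.4 CPM, 1.29), and Cdkn2d lower (91.5 ± 20.6 against 148 ± 53.1 CPM, -0.92).

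Of the 86 further cell cycle genes, 84 were tested. Between progenitor-like and neuron-like cells 54 were higher and 3 lower (all genes 5.57% and 11.3%), including 16 of 23 further S-phase genes, 27 of 31 further mitotic genes and 5 of 9 Rb and E2F genes. E2f1, an activator of S-phase genes, was at 61.7 ± 14.2 against 10.7 ± 10.8 CPM (2.45), and the phosphatase gene Cdc25c, which activates Cdk1, at 34.8 ± 11.5 against 5.90 ± 4.90 CPM (2.59). Against mesenchyme-like cells, progenitors had 39 of the 84 higher and 5 lower (all genes 13.8% and 21.6%). The higher genes included 22 of 31 further mitotic and 5 of 23 further S-phase genes, and E2f2 rose by 2.99. Neuron-like cells had 52 lower and 4 higher than mesenchyme-like cells (all genes 25.4% and 23.9%), among the lower all 6 D cyclins and kinases and 19 of 23 further S-phase genes. Macrophage-like cells had 42 higher and 7 lower (all genes 24.4% and 27.7%), with the flap endonuclease Fen1 at 37.4 ± 6.50 against 13.6 ± 4.10 CPM (1.82). Gas1, a growth-arrest gene, was lower than in mesenchyme in macrophage-like (-3.21), progenitor-like (-2.79), glia-like (-2.79), neuron-like (-2.14), osteoblast-like (-1.75) and cartilage-like cells (-0.60). It was also called lower in condensate-like cells.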

How the data were processed

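Whole noses of mouse embryos gave 5 WT libraries and 2 libraries of a ProKR2iCre/R26tdTomato nose. The deposited tables hold raw UMI counts per gene and barcode, made with Cell Ranger 6.0.1 (WT replicate 1), 7.0.0 (WT replicates 2 to 5) and 6.1.2 (both Prokr2Cre libraries), per the file headers. The submitters' processing notes name Cell Ranger 4, Seurat 4.3.0 and mm10. Whether intronic reads were counted is not given in the sources used here. Nothing in the labels ties WT replicates to litters or days. The p-values measure how differences between classes varied over these libraries, and in edgeR that spread is shared over all classes.

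The 48 members and all lists were chosen with earlier results of these data known. A marker was positive in a cell with a UMI of it and a share of the cell's UMIs at or above the library mean. A cell took the class with the largest share of positive markers, given at least 3 and no tie. Where markers of another cell family reached 0.67 of that share the cell was left out (1275 cells), which also served as the treatment of doublets. A further 3333 cells had too few markers and 455 were tied. Scrublet in scanpy 1.11.5 marked at most 0.333% of barcodes with its automatic threshold, so removal by score was only an alternative.

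Raw counts were summed per library and class with at least 10 cells. They were tested in 1 fit over all classes with edgeR 4.0.16 (R 4.3.3; TMM, filterByExpr, quasi-likelihood) and the library as block, since classes of a library come from the same suspension. The 147 gate markers were not tested, p-values were adjusted over 14200 genes (Benjamini-Hochberg) and the threshold was 0.05. The fit was tried on counts simulated from 1 mean profile for all classes, with changes set in progenitor-like cells only. Against neuron-like cells it found 59 of 100 changes of 4-fold and 69 of 100 of 8-fold. Of its 137 calls 9 were false. The classes of the real data differ far more widely than these counts. Shares were compared with exact two-sided sign-flip tests over libraries, adjusted over 7 planned pairs. All intervals cover counting error only.

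Per comparison, the text names Mki67, Top2a, Cdk1, Ccnb1, Pcna, Mcm5, Rrm2 and Tyms as needed, the 3 S-phase and 5 mitotic members with the largest called changes, members called against their group, up to 6 other cell cycle genes, and the D cyclins and Cdkn1 inhibitors. Promoter windows come from RefSeq (GRCm38.p6), 1 a gene.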

Additional observations from a re-analysis of the deposited data

Results flagged for a closer look

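In 46 measures with 4 WT libraries, the gap between an extreme library and its nearest neighbour was set against the range of the group, a comparison that chance flags in about 1 in 20 groups. It flagged 3. The share of stratified epithelium-like cells with S-phase members was 17.2% in WT replicate 4, and 34.7% to 36.6% in the other libraries. The summed mitotic level of osteoblast-like cells was 3226 CPM in WT replicate 4, and 1586 to 1834 CPM in the others. The share of endothelial-like cells with mitotic members was 20% in WT replicate 5, and 51.4% to 53.8% in the others.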

How the results depend on the processing

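Members called, of 48, are given for each comparison as reported and then under the alternatives that moved them by over 1.5 times. The 2-class fit holds the compared classes only, "thinned" means cells thinned before gating, "1 more marker" and "stricter cells" are tighter gates, and the WT 1 and 4 and WT 2 and 5 settings hold libraries of 1 gene list and were added after the data had been seen. Progenitor against neuron had 44, with 12 in WT 2 and 5 and 23 to 44 with a library left out. Progenitor against mesenchyme had 33, with 17 in WT 2 and 5 and 20 to 31 with a library left out. Neuron against mesenchyme had 40, with 25 in the 2-class fit, 20 thinned, 1 in WT 2 and 5 and 15 to 43 with a library left out. Macrophage had 31, with 13 thinned, 11 in WT 1 and 4 and 19 to 34 left out. Simple epithelium had 27, with 8 in WT 1 and 4 and 16 to 30 left out. Glia had 23, with 36 in the 2-class fit, 1 thinned, 11 with doublets removed, 1 in WT 1 and 4 and 4 to 26 left out. Mural had 20, with 31 by DESeq2, 38 in the 2-class fit, 31 with 1 more marker, 2 thinned, 10 with doublets removed, 1 in WT 1 and 4, 5 in WT 2 and 5 and 4 to 15 left out. Dermal condensate had 12, with 21 by DESeq2, 39 in the 2-class fit, 4 with 1 more marker, 0 thinned, 0 in WT 1 and 4, 2 in WT 2 and 5 and 0 to 30 left out. Endothelial against mural had 6, with 10 by DESeq2, 17 in the 2-class fit, 10 with 1 more marker, 0 thinned, 0 in WT 1 and 4, 2 in WT 2 and 5 and 1 to 6 left out. Stratified against simple epithelium had 5, with 12 without the filter, 15 in the 2-class fit, 10 with stricter cells, 10 with 1 more marker, 14 thinned, 1 in WT 1 and 4 and 1 to 10 left out. Cartilage had 1 (higher), with 3 by DESeq2 (1 of them lower), 5 in the 2-class fit (2 lower), 0 with stricter cells, 4 thinned (2 lower), 0 with doublets removed, 0 in WT 1 and 4, 0 in WT 2 and 5 and 0 with any library left out. Osteoblast had 0, with 1 lower by DESeq2, 1 lower without the filter, 14 higher in the 2-class fit, 4 lower thinned and 0 to 2 left out (2 higher without WT replicate 1, 1 lower without replicate 5).

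Libraries pair the classes because all classes of a library come from the same suspension. Without the replicate block, that is with the library left out of the fit, 40 were called for progenitor against neuron, 19 for progenitor and 24 for neuron against mesenchyme, 22 for macrophage, 7 for simple epithelium, 4 for glia, 1 for mural, 0 for cartilage, 0 for condensate, 0 for endothelial against mural and 0 for stratified against simple epithelium.

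Summed levels, as mean log2 ratios, moved beyond their spread as follows. For condensate S-phase members 0.65 became 0.47 with 1 more marker and 0.48 thinned. Thinning took osteoblast from -0.09 to -0.65 (S-phase) and from 0.12 to -0.40 (mitotic), endothelial against mural from -0.42 to 0.0927 and from -0.64 to -0.26, macrophage S-phase from 0.49 to 0.66, progenitor against mesenchyme S-phase from 0.47 to 1.01, simple epithelium mitotic from 0.67 to 0.89 and mural S-phase from 0.46 to -0.0379. For muscle, with 1 library, S-phase 0.67 was 0.64 with stricter cells, 0.68 with 1 more marker and 0.68 with doublets removed, and mitotic 0.71 was 0.69, 0.82 and 0.76. Share differences near 0 changed sign. The osteoblast S-phase difference of -1.84 points was 0.67 with stricter cells, 0.39 with doublets removed, 0.32 at 3 UMIs and 6.33 without thinning. The endothelial S-phase difference of -6.00 was 7.84 without thinning and -10.8 to 1.47 left out. The mitotic one of -0.46 was 0.92 with WT replicate 3 in place of 4, 3.23 with stricter cells, 5.15 with 1 more marker, 0.75 with doublets removed, 0.49 at 1 UMI, 0.55 at 1000 UMIs, 1.88 without thinning and -3.35 to 5.62 left out. Cartilage mitotic 1.19 ran from -1.04 to 2.39 left out. Of single genes, thinning turned Kif2c (-1.41), Kif22 (-0.85), Ccnb2 (-0.0227), Cdk1 (-0.51) and Nuf2 (-1.21) in condensate, Mcm5 in osteoblast (-1.72), Rrm2 (-0.92) and Ect2 (-0.78) in mural and Aspm (0.47), Kif2c (0.11) and Knl1 (0.76) in endothelial cells. The cause of these changes was not tested. The muscle comparison gave no value in the 2-class fit, thinned or without WT replicate 1. Small classes limit the depth behind these counts, with 12 progenitor-like cells in WT replicate 5 at a median of 2226 UMIs.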

Other observations

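The progenitor-like cells were also divided by Neurod1, a marker of late progenitors, as a description added after the data had been seen. Cells with a Neurod1 UMI had 5545 ± 1049 CPM of mitotic members (SD, n = 4 WT libraries) and those without had 4132 ± 1416 CPM. WT replicate 5 went the other way, with 5398 against 6164 CPM, and WT replicate 4 had 2 cells without a Neurod1 UMI. The marker belongs to the gate, the spreads overlap and no test was made.

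In Prokr2Cre library 1, glia-like cells had 6034 CPM of mitotic members (22 cells) and mesenchyme-like cells 2640 CPM. In Prokr2Cre library 2 the values were 4212 CPM (57 cells) and 1899 CPM. Glia-like cells of the WT libraries had 2896 ± 489 CPM. The strain, the animal and the library cannot be told apart here.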
